A study of Mus musculus with 62 samples.

Results

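The heat shock proteins and cochaperones described here were 10 genes of 47643 in a table of transcript levels from the mouse diaphragm, the main muscle of breathing. They were taken by symbol, as a fixed list of members of the HSP70, HSP90, small heat shock protein, J-domain and BAG families. These were Hspa1a, Hspa1b, Hspa8, Hsp90aa1, Hspb1, Hspb6, Hspb7, Cryab, Dnajb1 and Bag3. All 10 were above 0 in every mouse and passed the filter on low values, as did 13578 genes in all. In build GRCm38 the small heat shock protein genes lie at chr5:135887919-135889563 (Hspb1), chr7:30552178-30555443 (Hspb6), chr4:141420779-141425311 (Hspb7) and chr9:50751325-50756636 (Cryab). The HSP70 genes lie at chr17:34969190-34972156 (Hspa1a), chr17:34956436-34959238 (Hspa1b) and chr9:40800984-40810087 (Hspa8), and the others at chr12:110690605-110702728 (Hsp90aa1), chr8:83608193-83612653 (Dnajb1) and chr7:128523616-128546981 (Bag3).

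The study followed the diaphragm while a melanoma wasted the body of its host. Female mice were injected at 2 months of age with cachectic melanoma cells or with non-cachectic melanoma cells, and control mice were mock injected. Diaphragms were collected 2, 4, 6 or 8 weeks later, and RNA from each of 62 mice was sequenced as its own library. Each of the 12 conditions held 5 mice, except the cachectic condition at 8 weeks, which held 7. The melanoma cells were patient-derived xenografts placed under the skin of the flank, and each tumor arm rests on 1 xenograft. The series design names the hosts as NCI Ath/nude mice, which lack mature T cells but keep innate immune cells, whereas the sample labels name the strain C57BL6/J. The study's methods also name NCI Ath/nude mice as the hosts of both melanoma xenografts, and name C57BL6/J mice only for a separate tumor model. All arms carry the same label.

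Heat shock proteins are molecular chaperones, which hold or refold proteins that have lost their shape. HSP70 proteins (Hspa1a, Hspa1b, Hspa8) bind exposed stretches of an unfolded chain and are driven by J-domain proteins such as Dnajb1, and they are reset by nucleotide exchange factors such as Bag3. HSP90 (Hsp90aa1) completes the folding of kinases, hormone receptors and, in muscle, myosin. Small heat shock proteins (Hspb1, Hspb6, Hspb7, Cryab) hold unfolded proteins without using ATP and are abundant in striated muscle, where they associate with the Z-disc and with intermediate filaments. Bag3 joins small heat shock proteins to HSP70 in chaperone-assisted selective autophagy, which clears damaged Z-disc proteins such as filamin C. The stress-inducible members are known targets of the heat shock factor Hsf1, which binds repeats of the letters NGAAN in alternating orientation.

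Promoters are shown for 4 members. Hspb1 and Hspb7 are the members with the largest rises in cachectic against control mice at 8 weeks over 58 mice, and Hspa1a and Hspa1b are near-identical copies whose reads are hard to assign. Each line holds the 250 bases before the RefSeq transcript start in build GRCm38.p6, 5′ to 3′ on the strand of the gene, and capitals mark each match to GAANNTTC, which is a pair of adjoining NGAAN units facing each other. None of the 4 windows overlapped a gene, exon or UTR of the GENCODE annotation of that build. Hspb1 lies at chr5:135887669-135887918 on the + strand, Hspb7 at chr4:141420529-141420778 on the + strand, Hspa1a at chr17:34972157-34972406 on the - strand and Hspa1b at chr17:34959239-34959488 on the - strand.
Hspb1: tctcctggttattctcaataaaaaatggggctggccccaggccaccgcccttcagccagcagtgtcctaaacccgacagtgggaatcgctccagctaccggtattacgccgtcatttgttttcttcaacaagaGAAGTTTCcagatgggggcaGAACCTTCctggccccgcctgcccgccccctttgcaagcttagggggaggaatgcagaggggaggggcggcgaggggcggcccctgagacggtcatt
Hspb7: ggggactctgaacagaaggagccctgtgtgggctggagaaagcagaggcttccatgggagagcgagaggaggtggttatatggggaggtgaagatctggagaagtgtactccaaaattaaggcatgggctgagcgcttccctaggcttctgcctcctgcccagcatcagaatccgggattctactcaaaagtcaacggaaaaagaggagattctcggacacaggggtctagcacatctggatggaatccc
Hspa1a: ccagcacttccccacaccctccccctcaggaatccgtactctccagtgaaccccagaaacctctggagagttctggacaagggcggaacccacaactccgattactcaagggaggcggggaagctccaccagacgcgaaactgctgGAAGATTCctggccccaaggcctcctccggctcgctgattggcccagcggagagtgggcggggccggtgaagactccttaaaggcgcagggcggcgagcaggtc
Hspa1b: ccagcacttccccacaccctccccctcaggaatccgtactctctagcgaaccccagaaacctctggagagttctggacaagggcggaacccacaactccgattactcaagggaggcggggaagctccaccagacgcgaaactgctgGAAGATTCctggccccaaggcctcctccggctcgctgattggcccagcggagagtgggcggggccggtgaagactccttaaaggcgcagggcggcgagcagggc

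The window of Hspb1 held 2 matches, which began at positions -117 and -97 from the start, and that of Hspb7 held none. Hspa1a and Hspa1b each held 1 match, at position -104. Their windows were identical at 247 of 250 bases, and the 3 substitutions from Hspa1a to Hspa1b were C44T, T47C and T249G, counted from the first base printed. Of 32851 mouse promoters of 300 bases, which add 50 bases after the start, 7.86% held GAANNTTC, and 6.69% held it in the 250 bases before the start. The facing-away pair TTCNNGAA, searched the same way, was in 8.52% of all promoters and in none of the members' windows. Both patterns are palindromes, so a match on one strand is a match on the other, and the 2 patterns can overlap by 3 letters. Of the other members with a promoter, Bag3 had a match at position 43, inside its transcript, Hspb6 had 1 at position -120 of the second of its 2 starts, and Dnajb1 had none. A match is a run of letters and says nothing of binding.

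The members spanned more than 2 orders of magnitude in level. Levels are given in TPM, a scale per transcript length on which the transcripts of each library sum to 1000000, so that members can be set against each other. Cryab, or αB-crystallin, had a mean of 1483 TPM over the 62 mice and ranked 44 among all genes. Hspb7 (991 TPM, rank 74), Hspb6 (682 TPM, rank 118) and the constitutive HSP70 Hspa8 (608 TPM, rank 138) followed. Hspb1, the mouse Hsp27 homolog, had a mean of 338 TPM and Bag3 one of 107 TPM. Hsp90aa1, the inducible cytosolic HSP90, stood at 55.2 TPM and Dnajb1, the main HSP40 partner of HSP70, at 11.7 TPM. The inducible HSP70 genes were lowest, with means of 7.56 TPM for Hspa1a and 6.60 TPM for Hspa1b. The 4 small heat shock proteins made up 74.6 to 87.6% of the members' summed TPM, with a median of 81.1%. Neighbors in this order overlapped in range over the 62 mice, except Hsp90aa1 (30.2 to 95.1 TPM) and Dnajb1 (3.23 to 26.2 TPM). Hspb6 and Hspa8 spanned 234 to 1010 and 314 to 910 TPM, and Hspa1a and Hspa1b spanned 0.391 to 21.2 and 1.05 to 16.6 TPM.

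**Figure D1:**
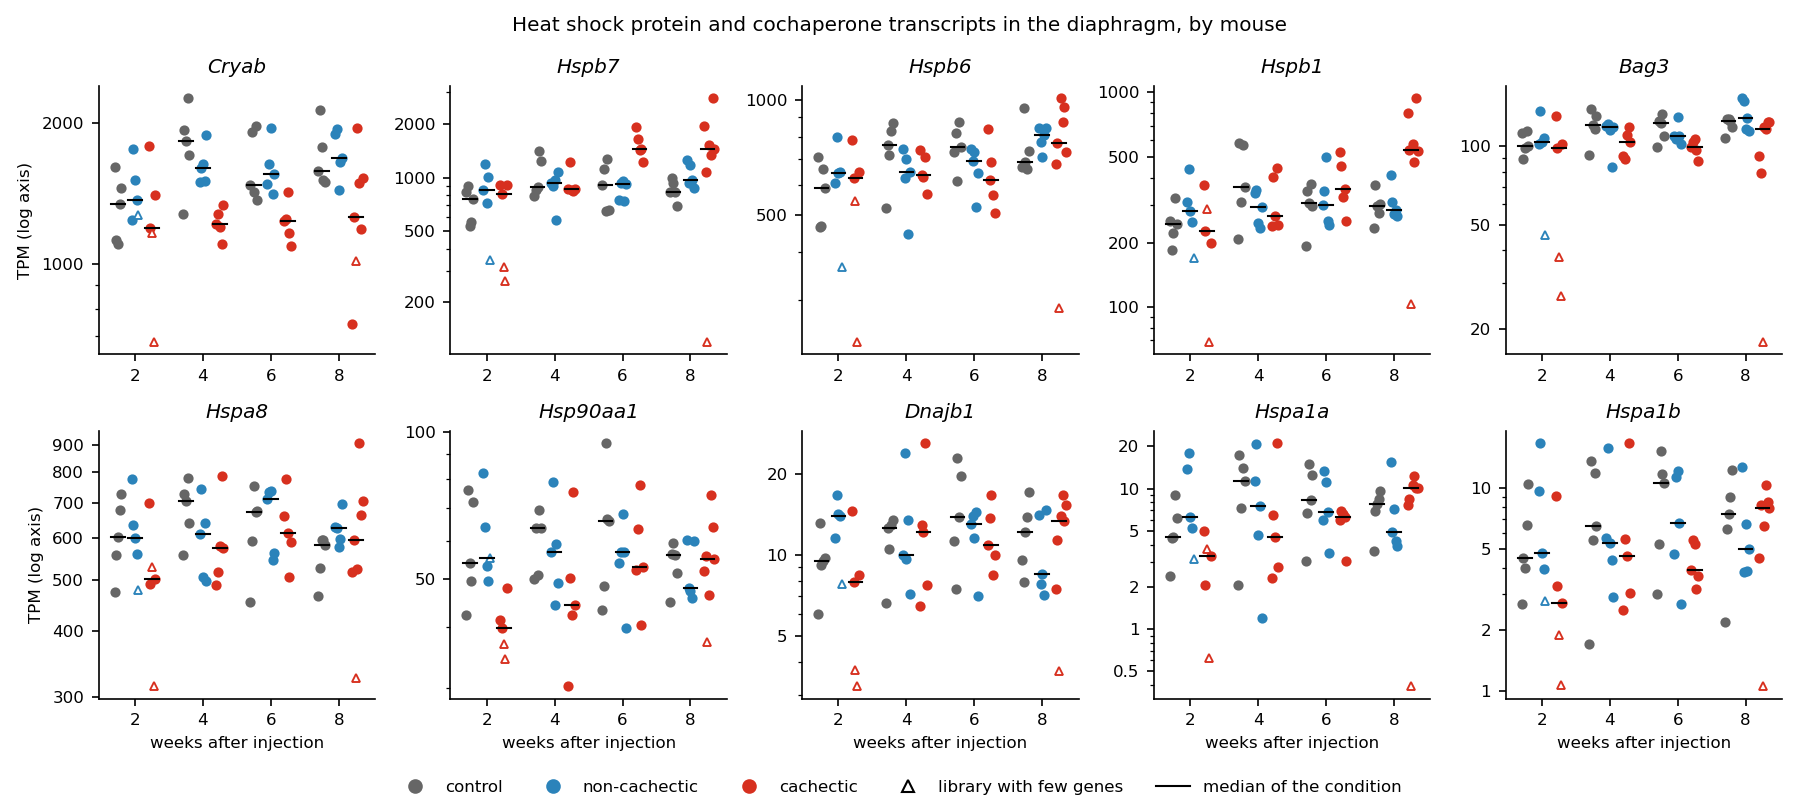
Level of each member in each of the 62 mice, in TPM on a log axis, by weeks after injection and arm; bars are medians of a condition and open triangles are the 4 libraries with few genes. At 8 weeks Hspb1 of cachectic mice lies above both other arms and Hspb7 above the control mice, except in 1 triangle, at 104 and 120 TPM, while Hspb7 of 1 further cachectic mouse (1078 TPM) lies below 2 non-cachectic mice.

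Several libraries stood apart, and they bear on each result that follows. In 4 libraries, namely cachectic 2 weeks replicates 3 and 4, non-cachectic 2 weeks replicate 5 and cachectic 8 weeks replicate 3, 15069 to 16389 genes were above 0 against 17909 to 19057 in the other 58, and mitochondrially encoded transcripts took 54.4 to 61.5% of the TPM against 32.5 to 50.1%. Fits were therefore run over all 62 mice and over the 58. The mitochondrial share was also lower in cachectic mice at 6 weeks (34.3 to 44.9%) than in control mice (44.9 to 47.9%), and at 8 weeks it was 32.5 to 41.6% in the 6 cachectic mice without few genes and 40.9 to 49.3% in control mice. TPM of other genes rises where that share falls. The median log2 fold change over all genes between cachectic and control mice was 0.17 at 6 weeks, and at 8 weeks it was -0.09 over 62 mice and 0.06 over 58. It was 0.01 at both weeks after scaling by median ratios, so 3 other scalings were run, namely median ratios, quantiles, and TPM without mitochondrially encoded genes. Running them on the 58 mice was chosen after the values were seen. Depth in reads is not recoverable from TPM, so no counting error can be given. Of the 10 skeletal muscle markers, all were above 0, and their summed TPM was 81169 to 102763 in cachectic and 75829 to 91001 in control mice at 6 weeks, and 66453 to 108664 and 76160 to 91932 at 8 weeks. Liver transcripts were high in a few libraries, most of all in control 2 weeks replicates 2, 4 and 5, where 10 liver markers summed to 24418, 11565 and 8704 TPM.

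Over all 62 mice, limma on log2(TPM + 1) with Benjamini-Hochberg adjustment over 13578 genes called 1 member in 1 comparison. Hsp90aa1 was lower in cachectic than in control mice at 2 weeks. Its levels were 41.2, 39.8, 36.8, 34.4 and 48.0 TPM in cachectic mice and 42.3, 76.2, 53.9, 49.7 and 72.0 TPM in control mice. Of the cachectic mice, 1 lay within the control range. Hsp90aa1 fell by 0.52 on the log2 scale (SE 0.19, adjusted p = 0.042), in a comparison in which 29.3% of all genes were called, 3781 of 3973 of them lower. Of these cachectic libraries, 2 were among those with few genes. Without them Hsp90aa1 had a log2 fold change of -0.41 (SE 0.22, adjusted p = 0.38), and after scaling all 62 libraries by median ratios one of -0.01 (adjusted p = 0.97). The control mice with the 2 highest Hsp90aa1 levels, replicates 2 and 5, were among the 3 rich in liver transcripts, whose liver sums of 8704 to 24418 TPM compare with 46.1 to 3447 TPM in the cachectic mice of that week. With the liver list as a covariate Hsp90aa1 had a log2 fold change of -0.43 (adjusted p = 0.095), and without control replicate 2 or 5 the adjusted p was 0.115 and 0.106. In these bulk samples, fewer cells of a type and less RNA per cell cannot be told apart.

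The other comparisons over all 62 mice called no member. Between cachectic and control mice, the share of all genes called was 0.0221% at 4 weeks, 6.79% at 6 weeks and 14.8% at 8 weeks, and 1, 1 and 2 members had an unadjusted p under 0.05. Between cachectic and non-cachectic mice the shares were 0% at 2 weeks, where 1709 genes had an unadjusted p under 0.05, 0.0295% at 4 weeks, 5.85% at 6 weeks and 12.9% at 8 weeks, and 3, 1, 2 and 3 members had an unadjusted p under 0.05. Dunn's rank test, run without a prior Kruskal-Wallis test and adjusted in the same way, called no member in any comparison. At 8 weeks it called 1121 genes between cachectic and control mice and 607 between cachectic and non-cachectic mice. Its unadjusted p was under 0.05 for 3 members between cachectic and control mice at 6 weeks and for 3 at 8 weeks. Of all 13578 genes tested, 4433 at 6 weeks and 3256 at 8 weeks also had such a p, so these counts are near the background. Non-cachectic mice did not differ detectably from control mice at any week. In the 40 pairs of member and week, 0 were called and 0 had an unadjusted p under 0.05, by limma over 62 or 58 mice or by Dunn's test, beside 1.11% of all gene and week pairs called.

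Without the 4 libraries, calls appeared among the small heat shock proteins at 6 and 8 weeks, and in opposite directions. Hspb7 and Hspb1 rose and Cryab fell in cachectic mice. The shares of all genes called in this fit were 26.9% higher and 4.29% lower at 6 weeks, and 22.2% higher and 12.4% lower at 8 weeks, so 1 of 10 members higher at 6 weeks and 2 of 10 at 8 weeks, and 1 of 10 lower at each, are near the background. The 6-week fold changes are the same in both fits, because none of the 4 libraries is from that week, and only the estimate of the spread differs.

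Hspb7, the cardiovascular small heat shock protein, binds filamin C and is found in heart and skeletal muscle. At 6 weeks its levels were 1922, 1655, 1426, 1437 and 1219 TPM in cachectic mice, 914, 1117, 654, 1274 and 658 TPM in control mice, and 753, 932, 959, 743 and 919 TPM in non-cachectic mice. Each cachectic mouse was above every non-cachectic mouse, and 1 control mouse reached the cachectic range. The log2 fold change against control mice was 0.76, or 1.70-fold on the log2(TPM + 1) scale, with an SE of 0.40 and an adjusted p of 0.28 over 62 mice by limma, and an SE of 0.20 and an adjusted p of 0.0026 over 58 mice. Against non-cachectic mice it was 0.82 (SE 0.20, adjusted p = 0.0015 over 58 mice, 0.27 over 62), where 22.1% of all genes were called higher and 5.18% lower. Hspb7 was called at 6 weeks against control mice by each of 3 other scalings of the 58 mice, where it stood at 0.57 to 0.65 (log2).

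At 8 weeks Hspb7 was at 1940, 1078, 120, 1527, 1346, 2782 and 1437 TPM in cachectic mice, 833, 993, 931, 827 and 694 TPM in control mice, and 1248, 936, 1172, 966 and 870 TPM in non-cachectic mice. The value of 120 TPM came from replicate 3, the library with few genes, and the other 6 cachectic mice were above every control mouse. The log2 fold change against control mice was 0.39 (SE 0.37, adjusted p = 0.55) over 62 mice. It was 0.92 over 58 mice (SE 0.19, adjusted p = 0.00012 by limma), a 1.89-fold rise, and it was called at 0.71 to 0.85 under the 3 other scalings. With replicate 3 alone left out it was 0.92 (adjusted p = 0.0072). Against non-cachectic mice, 2 of which lay above the cachectic mouse at 1078 TPM, it was 0.11 (SE 0.37, adjusted p = 0.90) over 62 mice and 0.64 (SE 0.19, adjusted p = 0.0061) over 58, beside 23.2% of all genes called higher and 10.2% lower. That call was not made with replicate 3 alone left out, or over 58 mice with quantile normalization.

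Hspb1 caps and stabilizes actin filaments besides holding unfolded proteins. At 8 weeks its levels were 806, 540, 104, 572, 474, 940 and 533 TPM in cachectic mice, where the lowest was again replicate 3. They were 233, 369, 297, 275 and 302 TPM in control mice and 412, 309, 271, 284 and 266 TPM in non-cachectic mice. The 6 other cachectic mice lay above all 10 mice of the other arms. Against control mice the log2 fold change was 0.72 (SE 0.33, adjusted p = 0.13) over 62 mice and 1.09 (SE 0.23, adjusted p = 0.00018) over 58 mice, a 2.13-fold rise with a 95% interval of 0.63 to 1.55 on the log2 scale. Against non-cachectic mice it was 0.66 (SE 0.33, adjusted p = 0.19) over 62 mice and 1.03 (SE 0.23, adjusted p = 0.00039) over 58. With replicate 3 alone left out the value against control mice was 1.09 (adjusted p = 0.0025). With median-ratio scaling Hspb1 was called over all 62 mice too, at 0.88 (adjusted p = 0.0071), and over 58 mice at 0.89 to 1.03 under the 3 other scalings. Over 62 mice Hspb1 was not called with quantile normalization or without mitochondrially encoded genes.

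Hspb1 did not pass the test at 6 weeks. Its levels were 525, 453, 327, 355 and 253 TPM in cachectic mice and 193, 348, 307, 376 and 297 TPM in control mice, which overlapped in range. Over 58 mice its log2 fold change of 0.32 had a 95% interval of -0.16 to 0.80.

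Cryab, the most abundant member, chaperones desmin and other filament proteins, and it moved the other way. At 4 weeks its levels were 1218, 1280, 1195, 1099 and 1333 TPM in cachectic mice, 1278, 1932, 1836, 2266 and 1709 TPM in control mice, and 1494, 1604, 1632, 1506 and 1885 TPM in non-cachectic mice. All cachectic mice were below all non-cachectic mice, and 2 were above the lowest control mouse. The log2 fold change against control mice was -0.54 (SE 0.17, adjusted p = 0.43) over 62 mice and -0.54 (SE 0.16, adjusted p = 0.057) over 58, and it was called under each of 3 other scalings of the 58 mice, at -0.59 to -0.66.

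At 6 weeks Cryab was at 1232, 1244, 1423, 1162 and 1089 TPM in cachectic mice, 1475, 1915, 1426, 1973 and 1368 TPM in control mice, and 1480, 1640, 1958, 1412 and 1558 TPM in non-cachectic mice. Of the cachectic mice, 1 lay above the lowest mouse of each other arm. Cryab fell by 0.40 on the log2 scale, to 0.76 of the control level, over 58 mice (SE 0.16, adjusted p = 0.047), and the adjusted p over 62 mice was 0.18. Against non-cachectic mice the log2 fold change was -0.38 (adjusted p = 0.059 over 58 mice). Scaling by median ratios, by quantiles or without mitochondrially encoded genes moved the value against control mice to between -0.52 and -0.59 over 58 mice, all called. Over 62 mice Cryab was called by limma at -0.56 without mitochondrially encoded genes (adjusted p = 0.015). With quantile normalization it was called at -0.52 (adjusted p = 0.031), and with median-ratio scaling it was not called.

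At 8 weeks Cryab spread more widely in cachectic mice, at 743, 1256, 1011, 1956, 1491, 1187 and 1527 TPM, against 1582, 2139, 1779, 1511 and 1496 TPM in control mice and 1898, 1950, 1437, 1654 and 1684 TPM in non-cachectic mice. The groups overlapped, since 1 cachectic mouse, at 1956 TPM, was above all but 1 mouse of the other arms. The log2 fold change against control mice was -0.42 (SE 0.16, adjusted p = 0.071) over 62 mice and -0.37 (SE 0.15, adjusted p = 0.049) over 58. Against non-cachectic mice it was -0.45 (adjusted p = 0.059) over 62 mice and -0.39 (SE 0.15, adjusted p = 0.036) over 58. Leaving out cachectic replicate 4, 5 or 7 alone gave adjusted p of 0.017, 0.047 and 0.045 against control mice.

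Hspb6, or Hsp20, was measured at 841, 616, 690, 565 and 508 TPM in cachectic mice and 730, 820, 615, 877 and 755 TPM in control mice at 6 weeks. The groups overlapped, with a log2 fold change of -0.25 (SE 0.14, adjusted p = 0.17 over 58 mice). At 8 weeks its values were 681, 773, 286, 1010, 877, 956 and 731 TPM against 669, 950, 687, 662 and 735 TPM in control mice. Over 58 mice the log2 fold change was 0.18, with a 95% interval of -0.09 to 0.45, and over 62 mice it was -0.04 (-0.47 to 0.38). Hspb6 was called at 6 weeks after the 3 other scalings of the 58 mice, at -0.40 to -0.44.

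**Figure D2:**
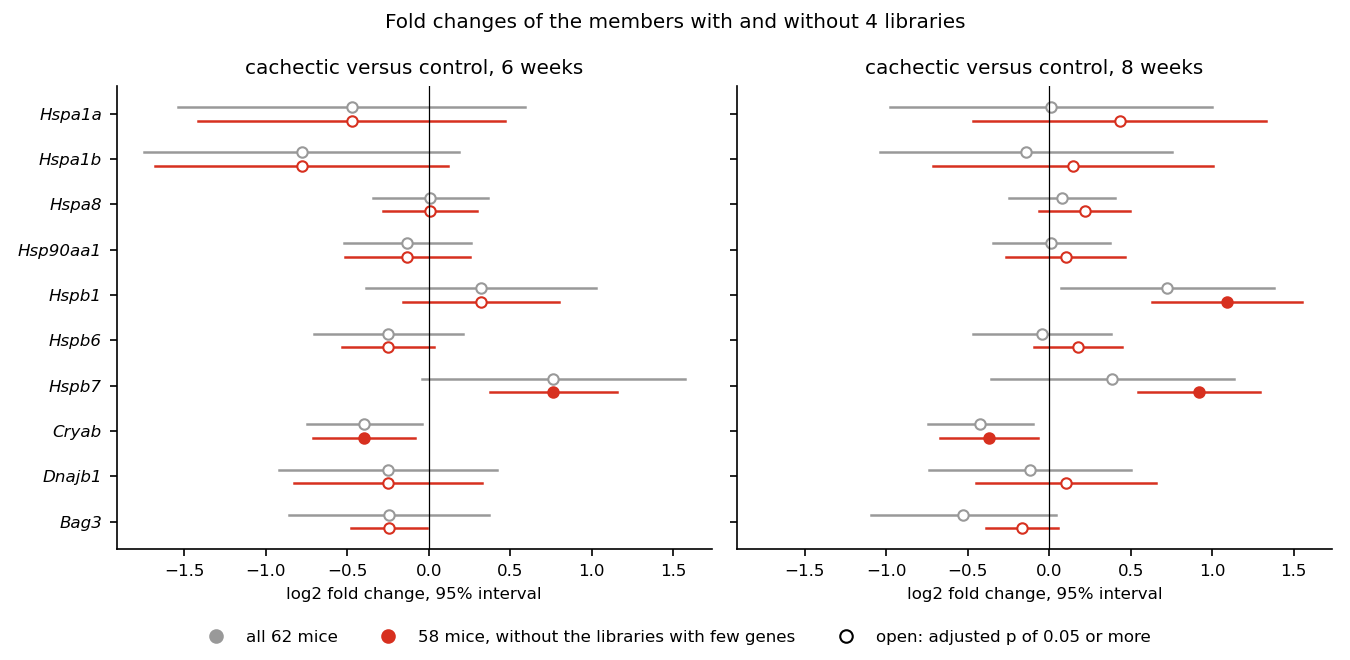
Log2 fold change of log2(TPM + 1) with its 95% interval for each member, cachectic versus control mice at 6 and 8 weeks, over all 62 mice (gray) and the 58 mice (red); filled points have an adjusted p under 0.05. Filled points are Hspb7 at 0.76 and Cryab at -0.40 at 6 weeks, and Hspb1 at 1.09, Hspb7 at 0.92 and Cryab at -0.37 at 8 weeks, all of them over 58 mice.

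The ratio of small heat shock proteins within a mouse does not change where its library is multiplied by 1 factor. Quantile normalization is not such a scaling. These ratios were chosen after the values had been seen and carry no test. At 6 weeks the ratio of Hspb7 to Cryab in TPM was 1.00 to 1.56 in cachectic mice (median 1.24), 0.459 to 0.646 in control mice and 0.490 to 0.590 in non-cachectic mice. Every cachectic mouse thus held at least as much Hspb7 as Cryab, which no mouse of the other arms did in any week. At 8 weeks the ratio was 0.119 to 2.61 in cachectic mice (median 0.903), and the value of 0.119 was that of replicate 3. It was 0.464 to 0.547 in control mice and 0.480 to 0.816 in non-cachectic mice. At 2 weeks it was 0.270 to 0.680 in cachectic and 0.424 to 0.798 in control mice, and at 4 weeks 0.647 to 0.960 and 0.442 to 0.727. The lowest cachectic values at 2 weeks, 0.270 and 0.390, came from the libraries with few genes, as did the lowest non-cachectic value of that week, 0.271. The ratio of Hspb1 to Cryab at 8 weeks was 0.103 to 1.08 in cachectic mice (median 0.349) and 0.147 to 0.202 in control mice, and at 6 weeks 0.230 to 0.426 and 0.131 to 0.217.

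**Figure D3:**
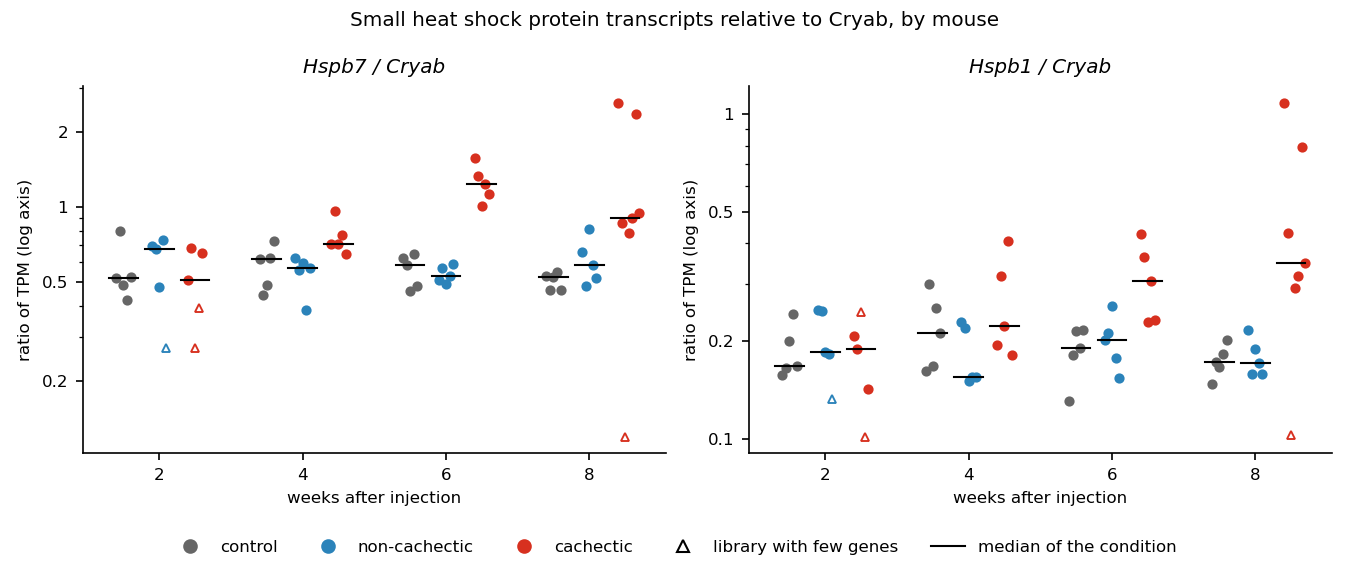
Ratio of Hspb7 to Cryab and of Hspb1 to Cryab in TPM in each mouse, on log axes, by week and arm; bars are medians and open triangles the libraries with few genes. The cachectic mice at 6 weeks lie at 1.00 to 1.56 for Hspb7 and at 8 weeks up to 2.61, while control mice stay between 0.424 and 0.798 over the 4 weeks.

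Bag3 links the small heat shock proteins to HSP70. At 6 weeks it was at 99.1, 104, 107, 97.1 and 87.9 TPM in cachectic mice and 99.1, 125, 123, 133 and 109 TPM in control mice. The groups overlapped at 1 control mouse, and the log2 fold change was -0.25 (SE 0.12, adjusted p = 0.098 over 58 mice, 0.70 over 62). After the 3 other scalings of the 58 mice it was called at -0.41 to -0.44. At 8 weeks Bag3 was at 91.9, 78.9, 17.8, 119, 116, 124 and 124 TPM in cachectic mice, 108, 127, 127, 124 and 119 TPM in control mice, and 153, 148, 117, 129 and 114 TPM in non-cachectic mice. Replicate 3 was far below the rest at 17.8 TPM, and the other 6 overlapped both arms. Against control mice the log2 fold change was -0.53 over 62 mice (SE 0.28, adjusted p = 0.22) and -0.17 over 58 (SE 0.11, adjusted p = 0.25), and over 58 mice it was called at -0.34 and -0.31 without mitochondrially encoded genes and with quantile normalization. Against non-cachectic mice it was -0.65 over 62 mice (SE 0.28, adjusted p = 0.13), and over 58 mice Bag3 fell by 0.29 on the log2 scale (SE 0.11, adjusted p = 0.041).

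The HSP70 and HSP90 genes and Dnajb1 did not pass the test between arms at 4, 6 or 8 weeks over 62 or 58 mice, and the intervals are wide for the inducible genes. Hspa1a, the classical inducible HSP70, was at 7.65, 8.48, 0.391, 10.6, 12.3, 10.1 and 10.1 TPM in cachectic mice at 8 weeks, 3.60, 6.97, 7.76, 8.45 and 9.61 TPM in control mice, and 15.4, 4.89, 7.20, 4.21 and 3.90 TPM in non-cachectic mice. The arms overlapped whether or not replicate 3, at 0.391 TPM, was counted. Against control mice the log2 fold change was 0.43 over 58 mice, with a 95% interval of -0.47 to 1.33, and 0.01 over 62 mice (-0.98 to 1.00).

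Levels of Hspa1a varied as much inside an arm. At 4 weeks the cachectic mice had 2.31, 6.45, 4.50, 21.2 and 2.78 TPM and the control mice 2.07, 17.2, 7.32, 14.0 and 11.3 TPM, so that each arm held both low and high mice. Hspa1b followed the same mice, at 2.50, 5.57, 4.61, 16.6 and 3.02 TPM in the cachectic and 1.69, 13.5, 5.55, 11.8 and 6.49 TPM in the control arm. Of 100-base windows, 47.1% of the Hspa1a transcript and 49.9% of the Hspa1b transcript occur exactly in the other, so the split of reads between them is uncertain. Their summed TPM was compared by exact two-sided permutation tests in 12 comparisons within a week, and the adjusted p was 0.63 to 0.96.

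Hspa8, which folds new and damaged chains in all cells, was steadier. At 8 weeks it was at 517, 596, 326, 524, 910, 665 and 704 TPM in cachectic mice and 466, 525, 596, 594 and 583 TPM in control mice. The groups overlapped, and the log2 fold change was 0.22 over 58 mice, with a 95% interval of -0.06 to 0.50, and 0.08 over 62. Hsp90aa1 was at 52.0, 55.7, 37.3, 46.4, 74.5, 63.9 and 55.1 TPM against 44.9, 56.2, 59.3, 56.1 and 51.5 TPM in these mice, and its log2 fold change was 0.10 over 58 mice (95% interval -0.27 to 0.47) and 0.01 over 62. Dnajb1, at 7.48, 11.3, 3.71, 14.0, 16.7, 13.4 and 15.4 TPM against 9.62, 7.90, 12.2, 13.8 and 17.2 TPM, had a log2 fold change of 0.10 over 58 mice (95% interval -0.45 to 0.66) and of -0.12 over 62 (-0.74 to 0.50). Over 58 mice the log2 fold change of Hspb1 at 8 weeks was 1.09. Its 95% interval overlapped those of Hspa1a and Dnajb1 but not those of Hspa8 and Hsp90aa1. Differences between genes were not tested.

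The course over the weeks was tested within each arm and as a difference between arms. From 4 to 8 weeks in cachectic mice, Hspb1 rose by 1.02 on the log2 scale (SE 0.23, adjusted p = 0.0021) and Hspb7 by 0.81 (SE 0.19, adjusted p = 0.0028) in the limma fit of 58 mice, in which 8.84% of all genes were called higher. In control and in non-cachectic mice no member was called over these weeks, with values for Hspb1 of -0.37 and 0.07. Over 62 mice the cachectic values were 0.65 for Hspb1 and 0.27 for Hspb7, no member was called within any arm and 0 of 30 had an unadjusted p under 0.05, beside 0.69% of all genes over the arms. The difference between cachectic and control mice grew from 4 to 8 weeks by 1.38 for Hspb1 (SE 0.33, adjusted p = 0.021) and by 1.06 for Hspb7 (SE 0.27, adjusted p = 0.033) over 58 mice, beside 0.773% of all genes called with a larger difference. Over 62 mice the growth was 1.02 for Hspb1 and 0.52 for Hspb7, this test called 0% of all genes, and 1022 genes, Hspb1 among them, had an unadjusted p under 0.05. From 6 to 8 weeks it called no member in either fit and 0% of all genes over 62 mice, and 0 members over 62 mice and 2 over 58 had an unadjusted p under 0.05. The growth from 4 to 8 weeks includes the lower control means of Hspb1 and Hspb7 at 8 weeks. Growth against non-cachectic mice was not tested.

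Members also varied from mouse to mouse inside a condition, and fell into sets that varied together. After the mean of each condition was subtracted from log2(TPM + 1), the SD was 0.86 for Hspa1a, at or above 96.9% of all genes tested, and 0.78 for Hspa1b. The SD of Hspb7 was 0.65 over 62 mice and 0.32 over 58, and that of Bag3 0.49 and 0.19, beside a median of 0.33 and 0.19 over all genes. The correlations that follow are descriptions across mice that share depth and RNA quality as well as biology, and carry no p.

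Hspa1a, Hspa1b, Hspa8, Hsp90aa1 and Dnajb1 were correlated with each other at Pearson's r of 0.69 to 0.90 over 62 mice and 0.65 to 0.90 over 58. The 0.90 in each was that of Hspa1a with Hspa1b, between which the split of reads is uncertain. The next highest r was that of Hspa1b with Dnajb1, at 0.80 and 0.75. Hspb1 had r of 0.75 and 0.65 with Hspa1a, 0.81 and 0.57 with Hspb6, and 0.76 and 0.59 with Bag3. With Hsp90aa1 it had 0.43 and 0.36, and with Dnajb1 0.51 and 0.29. Hspb7 and Bag3 had r of 0.86 over 62 mice and 0.35 over 58, so that much of that value rested on the 4 libraries. Hspb6 and Cryab had 0.68 and 0.62. Hspb7 stood away from the HSP70 set, with r of 0.45 to Hspa8 over 62 mice and -0.13 over 58. High r values were not particular to chaperones. Among the genes most like Bag3, Hspb1 ranked 5253 over 62 mice and 341 over 58, and Hspb7 ranked 2792 and 2856. Among those most like Hspb1, Bag3 ranked 128 and 79.

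**Figure D4:**
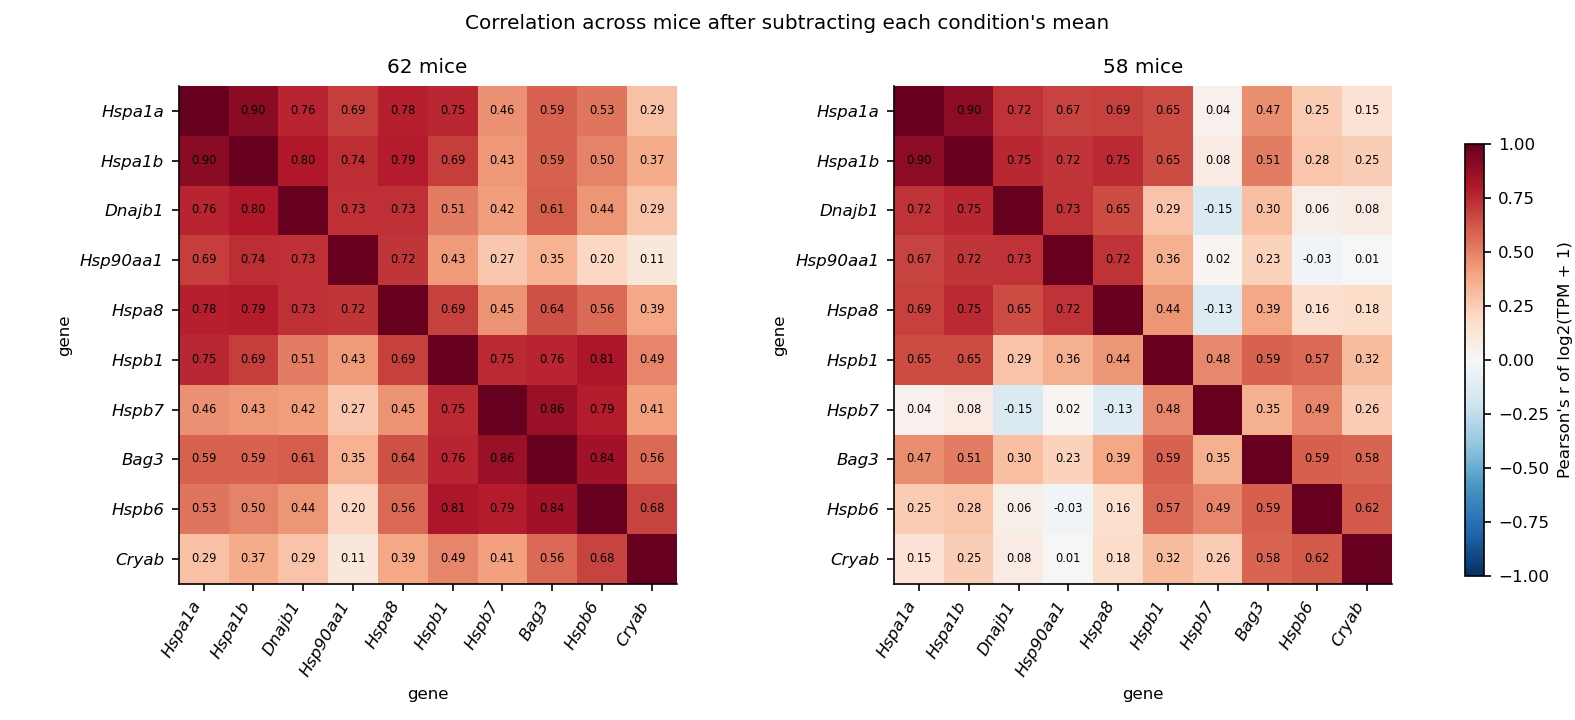
Pearson's r between members across mice, from log2(TPM + 1) after each condition's mean was subtracted, over 62 mice (left) and 58 mice (right). The square of Hspa1a, Hspa1b, Dnajb1, Hsp90aa1 and Hspa8 stays at 0.65 or above on both sides, while Hspb7 against Bag3 goes from 0.86 to 0.35.

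The genes most like each member were found by the same measure over 58 mice. Hsp90aa1 was closest to the J-domain gene Dnaja1 (r = 0.87), the p23 cochaperone gene Ptges3 (0.85) and the HSP90 partner gene Chordc1 (0.84). Dnajb1 was closest to Mat2a (0.88), Dnaja1 (0.88) and Ppp1r10 (0.83), and Hspa8 to P4ha1 (0.83). Hspb1 was closest to Popdc3 (0.80) and the filamin C gene Flnc (0.77). Hspb7 was closest to Nrap (0.77), Cryab to Tspan3 (0.77), Hspb6 to the α-actinin gene Actn2 (0.71) and Bag3 to Upf1 (0.77). Over 62 mice Nrap (0.95) remained first for Hspb7 and Upf1 (0.97) for Bag3, whereas Psmd4 (0.86) came first for Hspb1, Acta1 (0.90) for Hspb6, Cdc42ep2 (0.76) for Cryab and Ppp1r10 (0.88) for Dnajb1.

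Other chaperone genes were counted from lists by role, again between cachectic and control mice. Beside every list, 6.79% of all genes were called at 6 weeks and 14.8% at 8 weeks over 62 mice. Over 58 mice 26.9% were higher and 4.29% lower at 6 weeks, and 22.2% and 12.4% at 8 weeks. The counts were not tested against these shares. Among 12 genes of HSP90 and its cochaperones, Fkbp5, which tunes steroid receptors bound to HSP90, had the largest change. It was at 55.3 to 155 TPM in cachectic and 9.64 to 17.6 TPM in control mice at 6 weeks, without overlap, and rose by 2.50 on the log2 scale (SE 0.71, adjusted p = 0.021 over 62 mice). At 8 weeks it rose by 2.51 (adjusted p = 0.0050), and by 3.27 over 58 mice. At 8 weeks over 62 mice the list held 1 gene higher and 3 lower, among them Stip1, which carries clients from HSP70 to HSP90 (-0.69), and Smyd1, a myosin-binding partner of HSP90 (-0.63). Over 58 mice 3 were higher and 4 lower at 8 weeks, with a median of -0.04, and 2 higher and 1 lower at 6 weeks, with a median of -0.02, beside medians of 0.06 and 0.17 over all genes.

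Of 9 other HSP70 and HSP110 genes, none was higher and 2 were lower at 8 weeks over 62 mice, and 1 was higher and 3 lower over 58. Of all genes, 14.8% were called at 8 weeks over 62 mice, and 22.2% were higher and 12.4% lower over 58. Hsph1, the HSP110 exchange factor of HSP70, was at 10.2 to 17.9 TPM in cachectic and 17.1 to 31.0 TPM in control mice at 6 weeks, and at 6.19 to 17.8 and 20.7 to 29.5 TPM at 8 weeks. It fell by 0.99 on the log2 scale at 8 weeks over 62 mice (adjusted p = 0.0017) and by 0.75 at 6 weeks over 58 mice (adjusted p = 0.00085). Hspa4l, of the same subfamily, fell by 0.75 at 8 weeks (adjusted p = 0.0014 over 62 mice). At 6 weeks the list held 0 called genes over 62 mice, and 1 higher and 1 lower over 58.

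Of 8 other J-domain genes, Dnaja4, which is heat inducible, fell by 0.86 at 8 weeks (adjusted p = 0.0019 over 62 mice) and by 0.59 at 6 weeks over 58 mice. Dnajc7 rose by 0.40 at 6 weeks and 0.33 at 8 weeks over 62 mice, and these lists held 2 higher and 1 lower at 6 weeks and 4 higher and 1 lower at 8 weeks over 58. Of 5 other small heat shock proteins, 3 were tested, none was called over 62 mice, and 1 was lower over 58 mice at each week, namely the muscle gene Hspb3 (-0.59 at 6 weeks, -0.67 at 8 weeks). Of 8 HSP70 regulators none was called over 62 mice, and over 58 mice 2 were higher at 6 weeks and 3 at 8 weeks, with Bag5 at 0.32 and 0.24. Of 5 partners in chaperone-assisted selective autophagy, none was called over 62 mice, and over 58 mice the cargo receptor Sqstm1 rose by 0.58 at 6 weeks and by 0.78 at 8 weeks, when Flnc rose by 0.66.

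Of 4 heat shock factor genes tested, none was called over 62 mice, and Hsf4 rose by 0.39 at 6 weeks and by 0.78 at 8 weeks over 58. Of 9 endoplasmic reticulum chaperones, 1 was higher at 6 weeks over 62 mice and 4 over 58, led by Dnajc3 (0.56, adjusted p = 0.041 over 62 mice), and 0 and 2 at 8 weeks. Of 6 mitochondrial chaperones, the HSP60 gene Hspd1 fell by 0.53 at 8 weeks (adjusted p = 0.016) and Grpel1 rose by 0.29 (adjusted p = 0.0081), and over 58 mice 1 was higher and 1 lower at each week. Among all genes, 3651 were higher and 582 lower at 6 weeks over 58 mice, and 1325 and 1745 after scaling by median ratios, so calls of small rises at 6 weeks depend on the scaling.

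**Figure D5:**
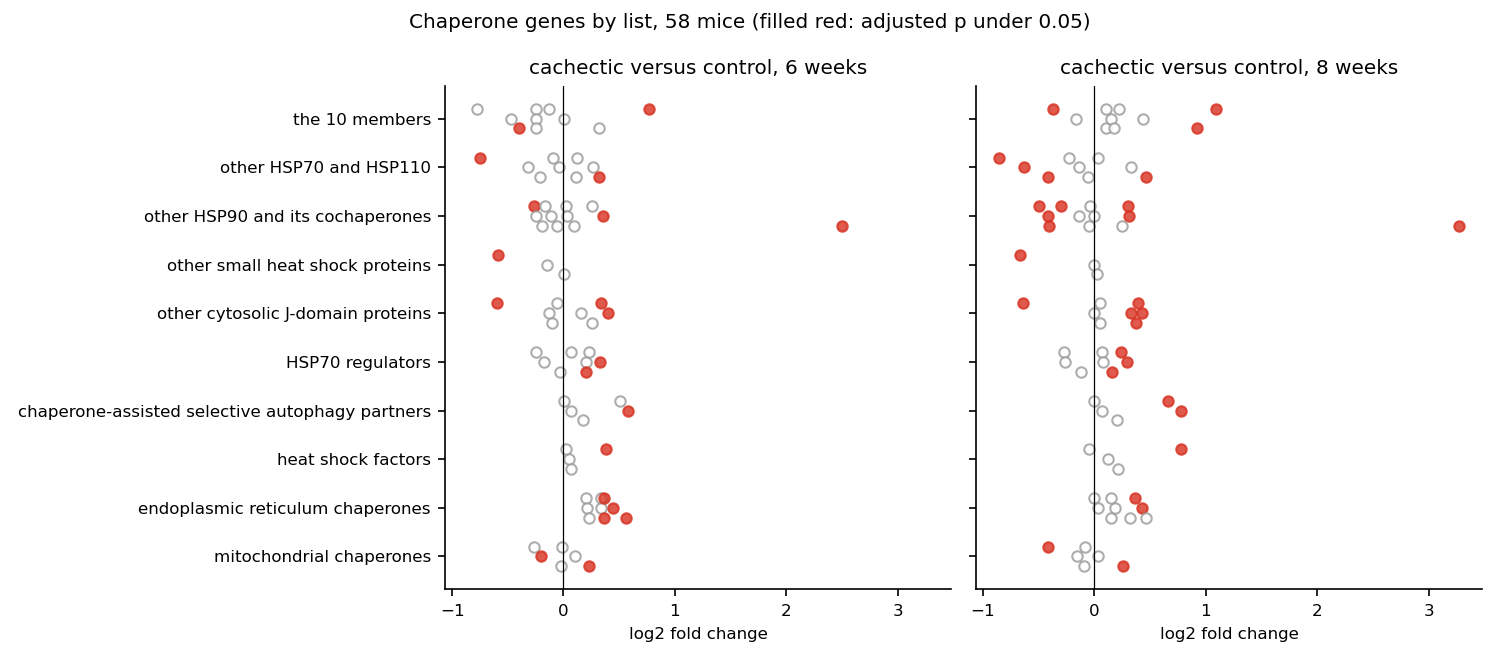
Log2 fold change of log2(TPM + 1), cachectic versus control mice at 6 and 8 weeks over 58 mice, for the 10 members and for other chaperone genes by list; each point is a gene, and red points have an adjusted p under 0.05. The point farthest right is Fkbp5, at 2.50 and 3.27, and Hsph1 is the lowest other HSP70 and HSP110 gene, at -0.75 and -0.85.

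Markers of other cell types moved between cachectic and control mice as well, beside 6.79% of all genes called at 6 weeks and 14.8% at 8 weeks over 62 mice. Over 62 mice, 4 of 8 macrophage markers were higher at 6 weeks and 5 of 8 at 8 weeks, with summed TPM of 148 to 266 against 94.8 to 150 and of 139 to 387 against 104 to 161. Of 4 neutrophil markers tested, 0 and 2 were higher, of 8 fibroblast markers 1 was higher at 6 weeks and 1 higher and 4 lower at 8 weeks, and of 8 endothelium markers 0 were called at 6 weeks and 1 was lower at 8 weeks. Of 8 adipocyte markers 0 were called at 6 weeks and 1 was higher and 1 lower at 8 weeks, and of 10 skeletal muscle markers 2 were higher and 1 lower and then 1 higher and 1 lower. None of 10 liver markers was called, and their summed TPM was 14.0 to 5465 in cachectic and 13.8 to 374 in control mice at 6 weeks and 51.8 to 2319 and 16.5 to 412 at 8 weeks. Of 11 immediate early genes tested, listed as a possible sign of handling, 1 and 2 were higher. Their summed TPM was 235 to 463 against 191 to 252 at 6 weeks and 43.6 to 532 against 215 to 259 at 8 weeks. The value of 43.6 TPM was that of replicate 3, the library with few genes. The other cachectic mice at 8 weeks had 262 to 532 TPM, above every control mouse of that week. Inside conditions, the mean of the immediate early genes had r of 0.73 with Hspb1 over 62 mice and 0.46 over 58, and of 0.74 and 0.23 with Hspb7. The part of these cells and of handling in the members' values was not tested.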

How the data were processed

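Total RNA from the diaphragm of 62 mice, 1 library a mouse, was sequenced. The authors aligned trimmed reads to the mouse genome (mm10) with CLC Genomics Workbench and deposited 1 table of TPM for 47643 genes, in which every library sums to 1000000. The annotation release, the handling of multi-mapped reads and the strand setting of the counting are not given in the sources used here. Strand matters for Cryab, which overlaps Hspb2 on the other strand, for Hspb6, which overlaps Proser3 and Lin37, and for Hspa1a, which overlaps Gm20481. The sample labels name a stranded library kit, whereas the study's methods name TruSeq RNA Sample Prep v2.

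The 13578 genes that reached 1 TPM in 5 or more mice were tested on log2(TPM + 1) with limma 3.58.1 in R 4.3.3, with a mean for each of 12 conditions, a mean-dependent prior and Benjamini-Hochberg adjustment over all genes tested, and a gene was called at an adjusted p under 0.05. The summed TPM of Hspa1a and Hspa1b was compared by exact permutation in scipy 1.17.1. The fits were tested on simulated data. Libraries with few genes are the 4 under 0.9 of the median number of genes above 0, and no 2 libraries held identical values. Samples were grouped by their labels, and no label says whether mice were processed in batches, so p-values measure the spread between these mice. Alternatives covered the pseudocount, the filter, the scaling, array weights, a liver covariate, the libraries used, Dunn's test and a replicate block. All members are named. Of other chaperone genes at 6 and 8 weeks, at most the 3 largest changes among those called in a list are named, and for likeness at most the 3 highest correlations. Read depth is unknown. Members and lists were chosen with earlier results of these data known.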

Additional observations from a re-analysis of the deposited data

Results flagged for a closer look

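In 120 groups of a member and a condition, 10 held a mouse far from its group by Dixon's test, which chance gives in about 1 in 20 groups. Cachectic 8 weeks replicate 3, a library with few genes, was the lowest of its group by this test for 6 members, at 0.391 TPM for Hspa1a, 1.05 for Hspa1b, 104 for Hspb1, 286 for Hspb6, 120 for Hspb7 and 17.8 for Bag3. Non-cachectic 2 weeks replicate 5, also a library with few genes, was lowest for Bag3 at 45.6 TPM. The other 3 came from libraries that do not stand apart by gene number. They were Hspb7 in cachectic 4 weeks replicate 2, highest at 1229 TPM, Bag3 in non-cachectic 4 weeks replicate 4, lowest at 83.4 TPM, and Hspa1a in cachectic 6 weeks replicate 5, lowest at 3.03 TPM, in the mouse with the highest liver marker sum at 6 weeks (5465 TPM).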

How the results depend on the processing

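Of 1760 member fold changes under alternatives, 1648 kept their side of the threshold, 14 calls were lost and 98 gained, and none that was called on either side changed sign. Of the gains, 64 came with the 4 libraries left out or with array weights. The call of Hsp90aa1 at 2 weeks against control mice was lost (0 members called) with no filter, median-ratio scaling, quantile normalization, no mitochondrially encoded genes, array weights, the liver covariate, 58 mice, the groups fitted alone, Dunn's test and a log2 fold change over 1. Leaving out 1 mouse gave 0 to 3 calls there (0 without cachectic replicate 3 or 4 or control replicate 2, 3, 4 or 5), 0 to 2 against control mice at 8 weeks and 0 to 1 against non-cachectic mice at 8 weeks. At 8 weeks the calls were Hspb1, and Hspb7 against control mice, without cachectic replicate 3, and Cryab without cachectic replicate 4, 5 or 7 or, against non-cachectic mice, without non-cachectic replicate 3. The other counts, 0 over 62 mice, became as follows. Array weights gave 1 call at 4 weeks, 3 at 6 weeks and 2 at 8 weeks against control mice, 1, 2 and 2 against non-cachectic mice, and 2 for the growth from 4 to 8 weeks. The 58 mice gave 2 at 6 weeks and 3 at 8 weeks against control mice, 1 and 4 against non-cachectic mice, and 2 for the growth from 4 to 8 weeks. In that fit 26.9% of all genes were higher and 4.29% lower against control mice at 6 weeks, and 22.2% and 12.4% at 8 weeks. Against non-cachectic mice 22.1% were higher and 5.18% lower at 6 weeks, and 23.2% and 10.2% at 8 weeks. At 6 weeks quantile normalization gave 1 against control mice, no mitochondrially encoded genes 1 against each arm, and the groups fitted alone 2 against each. At 8 weeks median-ratio scaling, quantile normalization and no mitochondrially encoded genes gave 2 against each arm. These were Bag3 and Hspb1 with median-ratio scaling, and Bag3 and Cryab with each of the others. The 58 mice with another scaling, chosen after seeing the data, gave 4 calls at 6 weeks and 3 to 4 at 8 weeks against control mice, and 3 and 3 to 4 against non-cachectic mice. Member counts under the alternatives were not tested against the share of all genes called in each fit. They describe the processing and not the members as a set. The array weights stopped short of convergence, and Dunn's test was not run for the growth over weeks.

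Replicate numbers did not pair the mice: of 60 pairs with the same number, 18 had deviations correlated above 0.1, in a range of -0.63 to 0.39. With the replicate block, 1 member was called against non-cachectic mice at 8 weeks, Bag3 at -0.87 (adjusted p = 0.045). Cachectic mice 6 and 7 of that week share no number with others and add nothing to that fit. The block changed no other count.

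Over all genes at 8 weeks against control mice, 903 were higher and 1102 lower over 62 mice, 1620 and 1651 with median-ratio scaling, and 746 and 2869 without mitochondrially encoded genes. At 6 weeks 763 were higher and 159 lower over 62 mice, and 467 and 545 with median-ratio scaling. TPM holds no depth, so whether the low inducible genes are limited by counting cannot be shown.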
